A study of Mus musculus with 25 samples.

Results

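The genes examined were 10 that mark astrocytes and carry out their handling of glutamate, water and potassium: Slc1a2, Slc1a3, Glul, Aqp4, Kcnj10, Gja1, Gjb6, Aldh1l1, Sox9 and Ndrg2. They were taken by name from a table of 45706 mouse genes, and all 10 were found in it and passed the filter on low counts in each hypothalamic comparison. The libraries came from mice of genotype Slco1c1Cre+/-;ROSA26lSlL10aGFP+/-, in which tamoxifen-inducible Cre driven by Slco1c1 switches on L10a, a ribosomal protein, fused to GFP, so that an antibody against GFP pulls down the tagged ribosomes with their RNA (the bacTRAP method). At 12 weeks of age, and 3 weeks from their tamoxifen, the mice ate a high-fat diet (HFD) or a control diet (CD) for 3 days. Each diet had 4 pools of hypothalami, each of 4 mice (2 female and 2 male), with libraries of the precipitated RNA (IP) and of the lysate (INPUT), which gave HFD IP, CD IP, HFD INPUT and CD INPUT with 4 libraries each. For contrast, 9 libraries came from cEND, 1 mouse brain endothelial line. These cells received the vehicle DMSO, or WZB117, which blocks glucose uptake through Glut1, at 0.5 µM or 10 µM, with 3 libraries each at passages 12, 14 and 18. Nothing in the labels says that the 3 passages were separate cultures of independent origin, so their p-values measure the spread between passages of this line.

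Astrocytes take up the glutamate and potassium that neurons release. The transporters GLT-1 (Slc1a2) and GLAST (Slc1a3) import glutamate, and glutamine synthetase (Glul) converts it to glutamine, which is returned to neurons. Potassium enters through the channel Kir4.1 (Kcnj10), water moves through aquaporin-4 (Aqp4), which is concentrated at the endfeet that wrap brain vessels, and connexin 43 (Gja1) and connexin 30 (Gjb6) join astrocytes through gap junctions. Aldh1l1 is a folate enzyme used as a marker of the whole cell type, Sox9 is a glial transcription factor, and Ndrg2 is a cytoplasmic protein abundant in astrocytes whose function is less well defined.

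The labels call the bacTRAP samples endothelial cells, and both cell types were represented in the IP. All 15 endothelial markers listed rose in IP over INPUT, with a median log2 fold change of 2.18, and so did all 20 further astrocyte markers, with a median of 3.09. In level the astrocyte genes were far above the endothelial ones. The 15 endothelial markers summed to 126 to 151 CPM in HFD IP and 113 to 169 CPM in CD IP, against 28.0 to 35.7 CPM in HFD INPUT and 25.2 to 29.5 CPM in CD INPUT. CPM is the counts-per-million unit after TMM scaling, which sets libraries to a common level over most genes. The 10 astrocyte genes summed to 43430.1 to 47332 CPM in HFD IP and 46736 to 56094 CPM in CD IP, against 5746 to 6526 CPM in HFD INPUT and 5789 to 7831 CPM in CD INPUT. Slco1c1, whose promoter drives the Cre, had 86.0 ± 13.4 CPM in HFD IP and 99.1 ± 13.9 CPM in CD IP, against 10.0 ± 1.89 CPM in HFD INPUT and 11.3 ± 1.72 CPM in CD INPUT (SD, n = 4 each). All 12 neuronal and all 8 microglial markers fell in IP, as did 8 of 9 oligodendrocyte markers. Of 6 markers of oligodendrocyte precursors, 4 fell and 2 rose. These 6 summed to 257 to 356.5 CPM in HFD IP and 250 to 265 CPM in CD IP. In the lysates they summed to 196 to 222 CPM with HFD and 190 to 202 CPM with CD. Of the markers of other cells that line the ventricles or vessels, 5 of 7 tanycyte and ependymal and 3 of 5 choroid plexus genes rose, and 1 of each list fell. Of 8 pericyte and smooth muscle genes, 5 fell and 2 rose. Over all genes tested, 41.6 percent rose and 42.2 percent fell in IP over INPUT. The part of other cell types in the results below was not tested. In such tissue libraries fewer cells of a type and less RNA per cell cannot be told apart. Total counts ran from 27886992 to 42752003 per bacTRAP library and from 27344573 to 41253550 per cEND library. Ribosomal, mitochondrial and other structural RNA took 7.84 to 10.5 percent of the counts in HFD IP and 9.38 to 10.0 percent in CD IP, against 32.9 to 39.7 percent in HFD INPUT and 37.3 to 39.6 percent in CD INPUT.

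Promoter sequence from RefSeq (build GRCm38.p6) was examined for 8 of the 10 genes, those other than Aqp4 and Sox9. It is shown for 5 of them, the 4 whose window held a CCAAT box and Slc1a2, which had the lowest ratio of observed to expected CpG. Each run covers 250 bases before to 50 bases after an annotated start, 5′ to 3′ on the gene's own strand. They lie at chr2:102706188-102706487 on the plus strand for Slc1a2, chr15:8710758-8711057 on the minus strand for Slc1a3, chr1:153899679-153899978 on the plus strand for Glul, chr1:172340960-172341259 on the plus strand for Kcnj10, and chr6:90550543-90550842 on the plus strand for Aldh1l1. The RefSeq starts used for Slc1a2 and Aldh1l1 lie inside their genes, 47779 and 64366 bases past the 5′ end in GENCODE M21, so their windows are those of internal starts. Capitals mark matches, on either strand, to the CCAAT box (CCAAT), the TATA box (TATAAA), a partial site of nuclear factor I (TTGGCA) or a pair of SOX core words (AACAAT and ACAAAG).
Slc1a2: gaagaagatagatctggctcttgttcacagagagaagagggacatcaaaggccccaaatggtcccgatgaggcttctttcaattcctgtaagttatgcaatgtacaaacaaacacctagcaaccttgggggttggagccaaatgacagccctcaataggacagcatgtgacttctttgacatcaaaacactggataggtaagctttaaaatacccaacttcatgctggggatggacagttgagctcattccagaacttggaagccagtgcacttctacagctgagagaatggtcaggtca
Slc1a3: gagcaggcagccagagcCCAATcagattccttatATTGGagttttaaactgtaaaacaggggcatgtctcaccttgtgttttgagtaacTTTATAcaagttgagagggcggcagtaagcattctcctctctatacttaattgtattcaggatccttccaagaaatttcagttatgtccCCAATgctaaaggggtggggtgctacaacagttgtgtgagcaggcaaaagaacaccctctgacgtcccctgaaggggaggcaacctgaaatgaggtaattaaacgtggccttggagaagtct
Glul: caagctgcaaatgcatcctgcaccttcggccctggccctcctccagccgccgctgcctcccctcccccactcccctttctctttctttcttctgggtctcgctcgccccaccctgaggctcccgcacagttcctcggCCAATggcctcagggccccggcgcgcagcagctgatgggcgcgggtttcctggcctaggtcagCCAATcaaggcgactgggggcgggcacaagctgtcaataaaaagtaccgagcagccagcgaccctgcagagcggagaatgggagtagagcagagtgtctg
Kcnj10: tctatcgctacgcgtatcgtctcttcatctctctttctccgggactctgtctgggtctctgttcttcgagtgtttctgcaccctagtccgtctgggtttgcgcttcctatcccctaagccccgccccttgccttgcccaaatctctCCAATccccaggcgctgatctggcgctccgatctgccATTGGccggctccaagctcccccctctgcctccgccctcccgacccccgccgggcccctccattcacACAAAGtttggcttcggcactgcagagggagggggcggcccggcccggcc
Aldh1l1: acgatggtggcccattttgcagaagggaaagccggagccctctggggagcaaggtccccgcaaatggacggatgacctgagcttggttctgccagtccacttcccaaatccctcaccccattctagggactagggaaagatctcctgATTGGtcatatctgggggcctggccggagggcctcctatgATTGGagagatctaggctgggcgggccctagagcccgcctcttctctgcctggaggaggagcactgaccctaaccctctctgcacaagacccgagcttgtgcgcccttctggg
A CCAAT box stood in the windows of 4 of the 8 genes (Aldh1l1, Glul, Kcnj10 and Slc1a3), and in 37.4 percent of all 32851 promoters of this length. Such counts are by gene, with more than 1 window for Ndrg2, while the percentages are by window. TATAAA stood in those of Slc1a3 and of 1 of the Ndrg2 starts, and in 13.6 percent of all promoters. ACAAAG was matched in Kcnj10 alone among the 8, and in 18.7 percent of all promoters. No window of the 8 genes held AACAAT or TTGGCA, which stood in 10.7 and 14.1 percent of all promoters. The window at the internal Slc1a2 start held 1 CpG site, with a ratio of observed to expected CpG of 0.0641, against 0.748 for Kcnj10, 0.559 for Glul and a median of 0.384 over all promoters. The words shown are matches of letters in these windows and not measured binding sites.

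All 10 genes rose in IP over INPUT, each by between 4.80-fold and 8.37-fold, and in each of them every IP library lay above every INPUT library. The median log2 fold change was 2.86 over the 10 genes and -0.018 over all 17592 genes tested. The comparison used 8 IP and 8 INPUT libraries in edgeR's quasi-likelihood test with diet as a term, and p-values were adjusted by the Benjamini-Hochberg method over all genes. Adjusted p-values of the 10 genes ran from 4.28e-25 to 2.33e-21. The background was wide, since 41.6 percent of all genes rose and 42.2 percent fell at an adjusted p under 0.05, and 30.4 percent had no overlap upwards between the fractions. A log2 fold change of at least 2, which each of the 10 reached, was met by 5.79 percent of genes. With scaling by library totals the median of all genes moved to 0.223 and 8888 genes rose and 5875 fell, against 7318 and 7416 with TMM. Under that scaling the median of the 10 genes was 3.11 and all 10 still rose. Of 8 genes that overlap members on the same or the opposite strand, 5 had counts here, each at most 0.133 percent of those of the member, and the other 3, of which 2 overlap Aldh1l1 and 1 overlaps Aqp4, had no measured count.

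**Figure D1:**
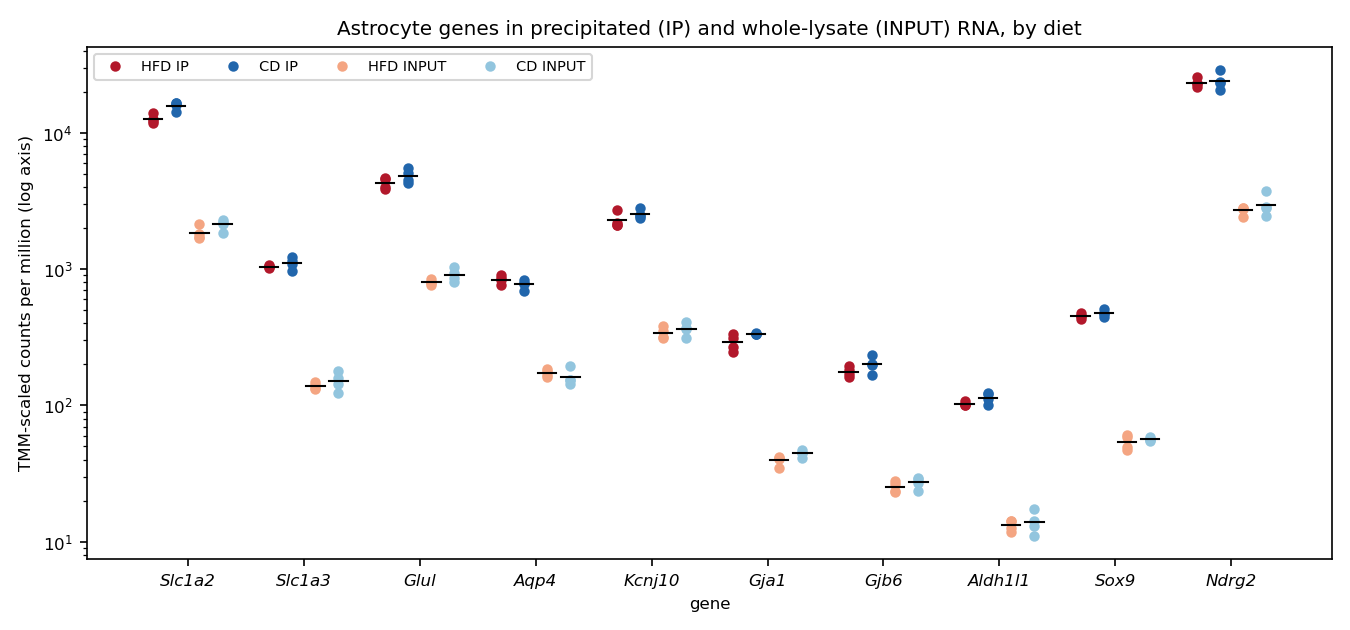
Level of each astrocyte gene in every bacTRAP library, as TMM-scaled CPM on a log axis, with groups from left to right HFD IP, CD IP, HFD INPUT and CD INPUT. Points are libraries (4 per group) and bars are group means; for each gene the IP points sit above all INPUT points, while the HFD and CD points of a fraction lie close together.

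Of the glutamate transporters, Slc1a2 (ENSMUSG00000005089, chromosome 2, 102658659 to 102790784, plus strand) was the more abundant. Coordinates of genes are those of GENCODE M21 on GRCm38. It had 12667, 13823, 12107 and 11856 CPM in the HFD IP libraries and 14102, 15948, 16445.5 and 16589.6 CPM in the CD IP libraries. In the lysates it had 1809.7, 2126, 1683 and 1724 CPM with HFD and 1828, 2146.5, 2213 and 2298 CPM with CD. The IP libraries were thus well above all INPUT libraries (log2 fold change 2.84 ± 0.07 SE, adjusted p = 8.21e-23 by edgeR), and in IP every HFD library was below every CD library. Slc1a3 (ENSMUSG00000005360, chromosome 15, 8634124 to 8710764, minus strand) had 1054, 1012, 1029 and 1063.5 CPM in HFD IP and 972, 1081, 1233.8 and 1137 CPM in CD IP. Its INPUT values were 134, 141, 131 and 148 CPM with HFD and 124, 142.5, 180 and 158 CPM with CD. The enrichment of Slc1a3, 2.89 ± 0.06 on the log2 scale (adjusted p = 4.03e-23 by edgeR), lay within the errors of that of Slc1a2.

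Glul (ENSMUSG00000026473, chromosome 1, 153899944 to 153909723, plus strand), the enzyme that makes glutamine, had 3991, 3886, 4665 and 4592 CPM in HFD IP and 4304, 5039, 5471 and 4477 CPM in CD IP. In INPUT it had 764.5, 804, 794 and 841 CPM with HFD and 804, 928, 1032 and 863 CPM with CD. Its log2 fold change in IP over INPUT was 2.42 ± 0.06 (adjusted p = 6.42e-22 by edgeR). Aqp4 (ENSMUSG00000024411, chromosome 18, 15389496 to 15410982, minus strand), the water channel, had 855, 901, 834 and 759 CPM in HFD IP and 770.4, 785, 689 and 837.5 CPM in CD IP. Its INPUT values were 185, 179.9, 160.3 and 167 CPM with HFD and 153, 155, 143 and 194 CPM with CD. Its rise of 2.26 ± 0.06 (log2, adjusted p = 7.53e-22 by edgeR) was the smallest of the 10.

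Kcnj10 (ENSMUSG00000044708, chromosome 1, 172341210 to 172374085, plus strand), the potassium channel, had 2172, 2729, 2119 and 2109.8 CPM in HFD IP and 2364, 2501.5, 2466 and 2825 CPM in CD IP. In INPUT it had 314, 383, 318 and 354 CPM with HFD and 314, 364.5, 371 and 407 CPM with CD, and it rose by 2.77 ± 0.07 in IP (log2, adjusted p = 2.84e-22 by edgeR). Gja1 (ENSMUSG00000050953, chromosome 10, 56377330 to 56402513, plus strand) had 309.7, 336, 245.5 and 270.0 CPM in HFD IP and 337, 334, 337 and 336 CPM in CD IP. Its 4 CD IP libraries were almost equal, 1 HFD IP library lay among them, and the other 3 lay below. In INPUT Gja1 had 41.0, 41.8, 35.0 and 40.2 CPM with HFD and 41.4, 45.1, 45.0 and 47.2 CPM with CD. Gjb6 (ENSMUSG00000040055, chromosome 14, 57123303 to 57133611, minus strand) had 163 to 193 CPM in HFD IP and 168 to 235 CPM in CD IP, against 23.1 to 27.7 CPM in HFD INPUT and 23.6 to 29.4 CPM in CD INPUT. The connexins rose in IP by 2.89 ± 0.06 (Gja1) and 2.84 ± 0.07 (Gjb6) on the log2 scale, with adjusted p = 3.56e-24 and 9.04e-22 by edgeR.

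Aldh1l1 (ENSMUSG00000030088, chromosome 6, 90486427 to 90600203, plus strand) was the least abundant of the 10, with 101 to 108 CPM in HFD IP and 101 to 123 CPM in CD IP, against 11.8 to 14.2 CPM in HFD INPUT and 11.1 to 17.3 CPM in CD INPUT. Sox9 (ENSMUSG00000000567, chromosome 11, 112782224 to 112787760, plus strand) had 426.5 to 476 CPM in HFD IP and 444 to 510.5 CPM in CD IP, against 47.0 to 60.7 CPM in HFD INPUT and 54.8 to 59.1 CPM in CD INPUT. Ndrg2 (ENSMUSG00000004558, chromosome 14, 51905271 to 51914158, minus strand) had 21685, 23051, 25573 and 22732 CPM in HFD IP and 23141, 23331, 28665.5 and 20512 CPM in CD IP. In INPUT it had 2409, 2763, 2798 and 2816 CPM with HFD and 2434.5, 2849, 3748 and 2786 CPM with CD. The CD libraries numbered 3 were the highest of their group in both fractions. These genes had the 3 largest rises in IP, of 3.07 ± 0.05 for Sox9, 3.06 ± 0.08 for Ndrg2 and 2.99 ± 0.07 for Aldh1l1 on the log2 scale (adjusted p = 4.28e-25, 2.33e-21 and 7.73e-22 by edgeR).

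Levels between genes were compared per kb of exon, after ribosomal, mitochondrial and other structural RNA had been set aside. On this scale Ndrg2 ranked first of 26155 genes in IP, with 8307 CPM per kb, and Glul (1639 CPM per kb), Slc1a2 (1292 CPM per kb) and Kcnj10 (534 CPM per kb) ranked 11, 13 and 38. Aqp4 (155 CPM per kb), Slc1a3 (150.4 CPM per kb), Sox9 (134 CPM per kb) and Gjb6 (84.1 CPM per kb) followed, and Gja1 (36.5 CPM per kb) and Aldh1l1 (28.8 CPM per kb) came last. The ranges of the 8 IP libraries overlapped between Glul and Slc1a2, between Aqp4 and Slc1a3, between Slc1a3 and Sox9, and between Gja1 and Aldh1l1, while the other neighbours in this order did not overlap. In INPUT Ndrg2 ranked 11 of 28083 genes, Glul 55, Slc1a2 119 and Kcnj10 356. The 10 genes took 5.30 to 5.66 percent of the remaining counts in HFD IP and 5.64 to 6.45 percent in CD IP, against 0.851 to 0.945 percent in HFD INPUT and 0.860 to 1.15 percent in CD INPUT.

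Ratios between partner genes of the same library, which need no scaling, showed that the group was not enriched evenly. The log2 ratio of Aqp4 to Kcnj10 averaged -1.58 ± 0.18 in IP and -1.08 ± 0.18 in INPUT (SD, n = 8 each), a difference of -0.50 (exact permutation test, 2-sided, p = 0.000466, adjusted p = 0.00559 over the 12 ratio tests made). The log2 ratio of Glul to Slc1a2 averaged -1.64 ± 0.19 in IP and -1.21 ± 0.14 in INPUT, a difference of -0.43 (exact permutation test, p = 0.000932, adjusted p = 0.00559). In both ratios the ranges of IP and INPUT overlapped. Aqp4 and Glul thus rose less than their partners. The ratio of Slc1a3 to Slc1a2 differed by 0.05 and that of Gjb6 to Gja1 by -0.05 between IP and INPUT (adjusted p = 0.583 each by the exact permutation test), which did not pass the threshold.

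**Figure D2:**
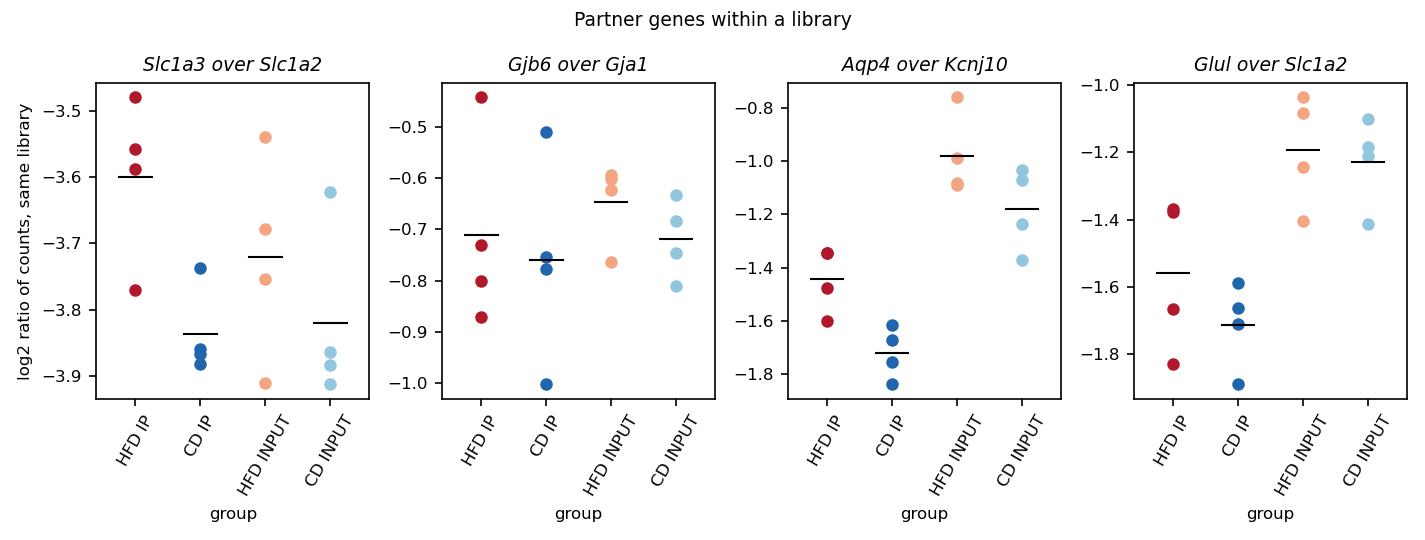
Log2 ratio of the counts of 2 partner genes in the same library, for 4 pairs of genes; points are libraries (4 per group) and bars are means, with HFD IP, CD IP, HFD INPUT and CD INPUT from left to right. For Aqp4 over Kcnj10 and Glul over Slc1a2 the IP means lie below the INPUT means, and in IP the HFD points of Aqp4 over Kcnj10 all lie above the CD points.

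The lists around these genes were split between rises and falls to different degrees, and are read beside the 41.6 percent of all genes that rose and the 42.2 percent that fell. Of 17 other genes of the glutamate and glutamine cycle, 7 rose and 9 fell, near the shares over all genes, and the median was -0.62 on the log2 scale. The genes with the smallest p were Slc25a18, a mitochondrial glutamate carrier (3.30 ± 0.06), Slc38a2, a glutamine importer (-2.11 ± 0.06), Slc7a11, which exchanges cystine for glutamate (1.91 ± 0.05), and Slc1a4, a carrier of neutral amino acids (1.75 ± 0.05). Slc25a18 is also on the list of further astrocyte markers. Slc1a1, the glutamate transporter of neurons, fell by 1.74 on the log2 scale, whereas Slc38a3, which releases glutamine from astrocytes, rose by 3.53; both genes were chosen after their values were seen. Of 12 tested genes for connexins, pannexins and their scaffolds, 3 rose and 7 fell, with a median of -1.05. Here Tjp1, a scaffold protein of cell junctions (1.49 ± 0.04), rose, and Panx2 (-1.72 ± 0.05) and Gjb1, a connexin of oligodendrocytes (-3.61 ± 0.16), fell. In the Ndrg family Ndrg4 (-1.38 ± 0.04) and Ndrg1 (-1.45 ± 0.06) fell and Ndrg3 rose slightly (0.22 ± 0.04).

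Of 14 potassium channels, pumps and cotransporters, 7 rose and 6 fell, again near the shares over all genes, with a median of -0.01. Kcnj16, the channel subunit that pairs with Kir4.1 (2.93 ± 0.05), and Atp1b2, the glial beta subunit of the sodium pump (2.82 ± 0.09), rose, whereas the cotransporter Slc12a2 (-1.96 ± 0.07) fell. Scaled by library totals, 7 rose and 5 fell, with a median of 0.23. Of 12 tested genes for other aquaporins and for the complex that anchors Aqp4 at endfeet, 9 rose and none fell, with a median of 1.36, and 12 rose with library totals, where Agrn changed sign. Among them were Mlc1 (3.15 ± 0.06) and Hepacam (2.71 ± 0.04), membrane proteins of astrocyte junctions, and Dag1 (2.16 ± 0.05), part of the dystrophin complex. All 12 glial transcription factors listed rose, with a median of 1.95, led by p by Rfx4 (2.87 ± 0.05), Nfix (2.32 ± 0.04), Nfia (2.06 ± 0.04) and Sox2 (2.65 ± 0.06). Of 13 genes of folate and serine metabolism 7 rose and 3 fell, with a median of 0.90, the first including Phgdh, Psph and Psat1, which make serine (2.68 ± 0.07, 1.98 ± 0.06 and 1.45 ± 0.05), and Mthfd1, a folate enzyme (1.67 ± 0.07). These log2 fold changes are IP over INPUT with SE, and each gene given with a value passed the edgeR test, for which 83.8 percent of all genes passed in either direction. Scaled by library totals, 7 genes of folate and serine metabolism rose and 3 fell, with a median of 1.14. Some genes of that list and of the potassium list also changed sign, none of them called under that scaling.

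**Figure D3:**
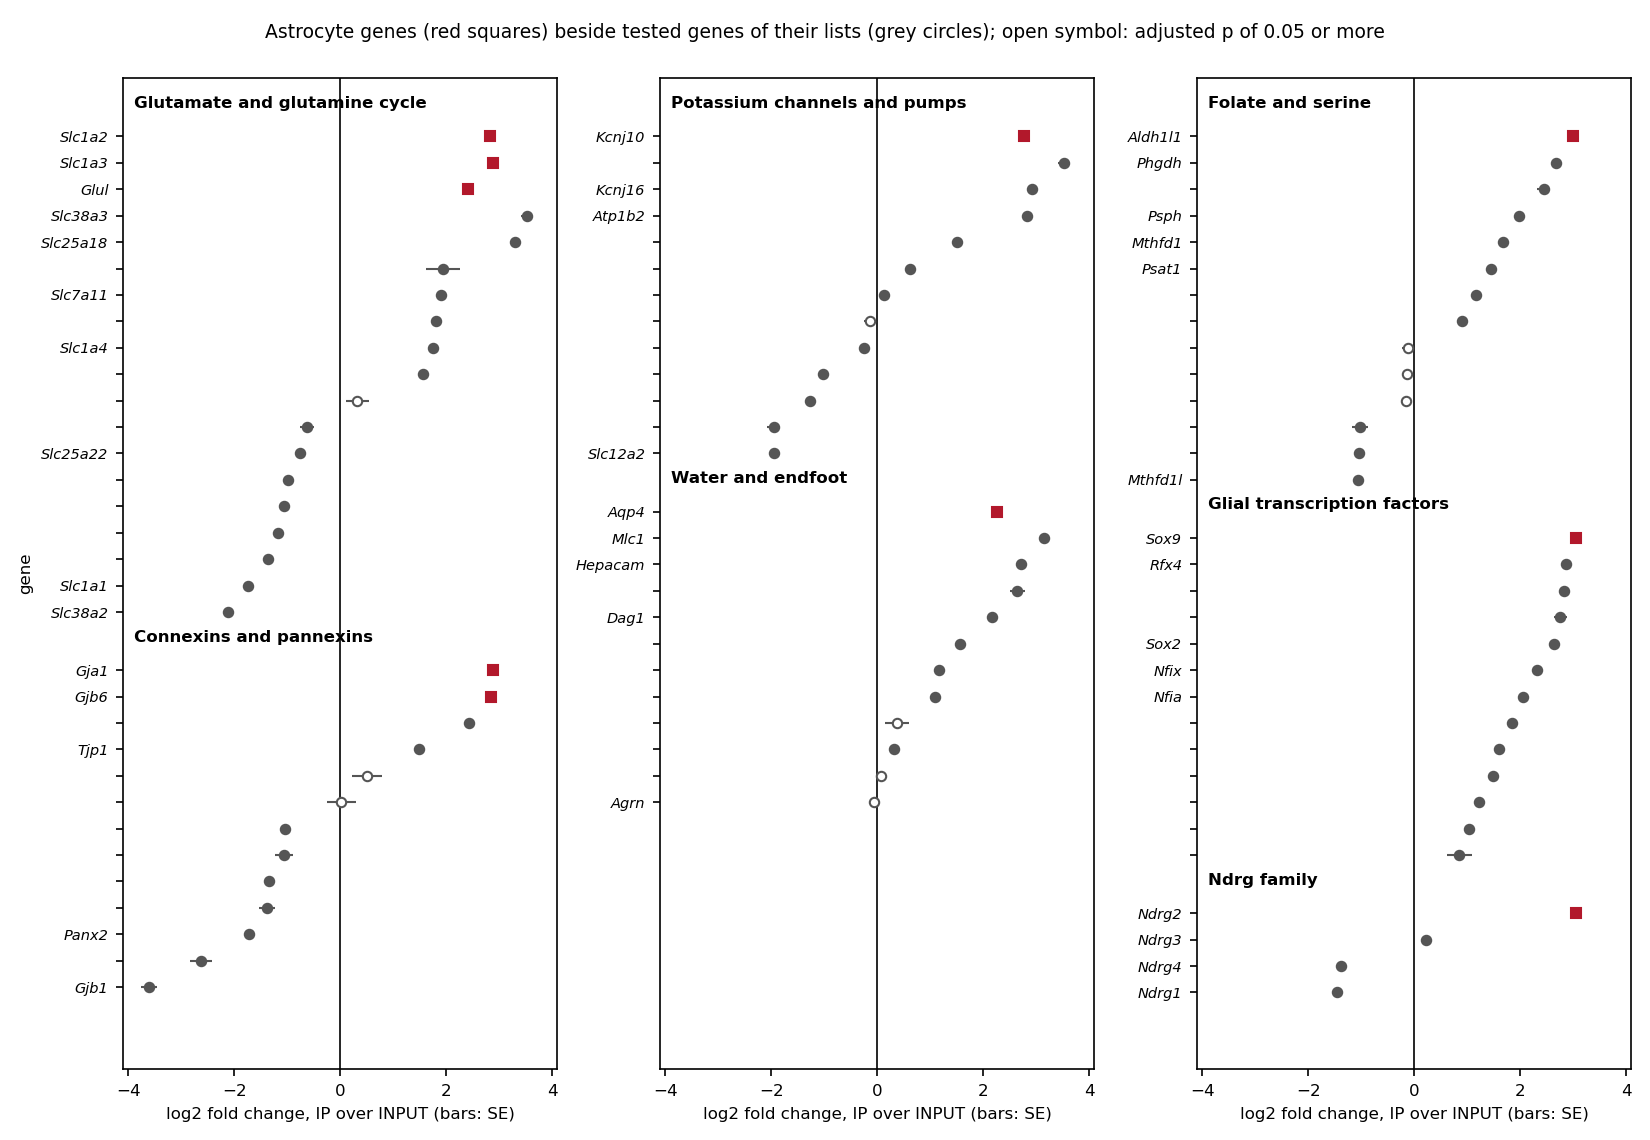
Log2 fold change of IP over INPUT with its SE for the 10 astrocyte genes (red squares) and for other tested genes of the 7 lists around them (grey circles, with names for those in the text, open where the adjusted p was 0.05 or more). The red squares lie between 2.26 and 3.07, while relatives such as Gjb1 and Slc38a2 lie below 0.

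The genes whose profile over the 16 bacTRAP libraries was nearest to the mean profile of the 10 were Mcc, Aldoc, Slc4a4, Pbxip1 and Itpkb. Their root mean square differences from it were 0.0569, 0.0745, 0.0778, 0.0794 and 0.0802 on the log2 scale, and their log2 fold changes in IP over INPUT were 2.81, 2.72, 2.79, 2.70 and 2.78. Such fold changes follow from the choice, since the profile matched includes the step from INPUT to IP. Among the 10 themselves, which make up that mean, the root mean square difference ran from 0.0884 for Slc1a3 to 0.223 for Glul and 0.315 for Aqp4.

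After 3 days of HFD none of the 10 genes passed the test in either fraction, although 9 of the 10 were on the lower side of CD in IP and 9 of 10 in INPUT. In IP 0 of 10 were called, against 14 of 15858 genes (0.0883 percent) over the whole table. By edgeR at an unadjusted p under 0.05 there were 2 of 10 in IP, against 1831 of all 15858 genes. DESeq2 called 1 of the 10, Slc1a2, with an adjusted p of 0.00522, against 200 of all genes (1.26 percent). In INPUT 0 of 10 were called, against 6 of 16879 genes (0.0355 percent). There 3 of 10 had an unadjusted p under 0.05 by edgeR, against 1258 of all genes. DESeq2 called 0 of the 10 in INPUT, against 52 of all genes (0.308 percent). The median log2 difference of the 10 was -0.13 in IP and -0.12 in INPUT, while 49.7 percent and 49.4 percent of all genes lay below 0. The 10 genes were measured in the same libraries and are not independent of each other. The count of 9 is thus not a set of separate observations, and the same holds for the marker counts below. Scaled by library totals, Ndrg2 moved to the upper side in IP, at 0.013. Where IP and INPUT libraries came from the same mice, the fractions are not independent views of the diet.

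Slc1a2 showed the largest difference of the 10 in IP, -0.30 ± 0.09 on the log2 scale (95% interval -0.50 to -0.11, unadjusted p = 0.00379, adjusted p = 0.199 by edgeR), that is, 1.23-fold lower in HFD IP. Its 4 HFD IP libraries all lay below the 4 CD IP libraries, a pattern downwards that 3.47 percent of all genes had. In INPUT the difference of Slc1a2 was -0.21 ± 0.08 (adjusted p = 0.615 by edgeR) with overlapping groups. Gja1 differed by -0.19 ± 0.08 in IP (adjusted p = 0.374) and by -0.18 ± 0.06 in INPUT (adjusted p = 0.569). Glul differed by -0.15 ± 0.09 in IP (adjusted p = 0.567) and by -0.18 ± 0.06 in INPUT (adjusted p = 0.573). Gjb6, Kcnj10 and Aldh1l1 were at -0.16, -0.14 and -0.13 in IP and at -0.11, -0.09 and -0.07 in INPUT. Slc1a3, Sox9 and Ndrg2 were at -0.07, -0.06 and -0.02 in IP and at -0.12, -0.06 and -0.13 in INPUT. Aqp4 was the one gene on the upper side, at 0.14 ± 0.08 in IP (95% interval -0.03 to 0.30, adjusted p = 0.522) and 0.10 ± 0.08 in INPUT (adjusted p = 0.83). Over the 10 genes the 95% intervals ran from -0.50 to 0.30 in IP and from -0.43 to 0.29 in INPUT.

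**Figure D4:**
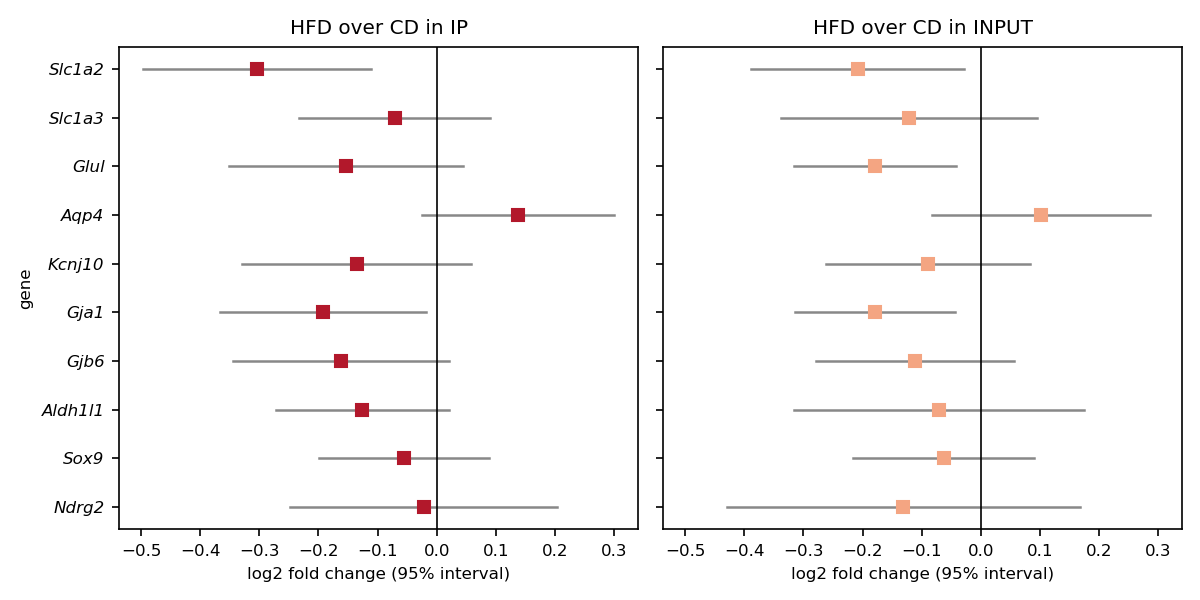
Log2 fold change of HFD over CD for each astrocyte gene in IP (left) and in INPUT (right), with squares for the estimate and lines for its 95% interval from the edgeR fit. Slc1a2 lies farthest to the left in IP, at -0.30, and Aqp4 alone lies right of 0 in both panels.

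The difference between the diet effects of both fractions was itself tested, and 0 of 17592 genes passed (0.0 percent, edgeR), with 755 at an unadjusted p under 0.05 and 4 called by DESeq2. For the 10 genes it ran from -0.11 for Slc1a2 to 0.09 for Ndrg2. In IP the log2 ratio of Aqp4 to Kcnj10 was -1.345, -1.599, -1.345 and -1.475 in the HFD libraries and -1.617, -1.672, -1.839 and -1.754 in the CD libraries, with no overlap. The difference was 0.28 (exact permutation test, p = 0.0286, the smallest that 4 against 4 libraries allow), and it did not pass over the 12 tests (adjusted p = 0.114). That of Slc1a3 to Slc1a2 averaged -3.60 ± 0.12 in HFD IP and -3.84 ± 0.07 in CD IP (SD, n = 4 each, exact permutation test, p = 0.0571, adjusted p = 0.171). The other 6 diet tests of ratios had adjusted p-values of 0.411 to 0.771 by the exact permutation test. None of the genes of the 7 lists around the 10 was called between the diets in either fraction. Of the 20 further astrocyte markers, 15 were on the lower side of CD in each fraction, and 2 fell in IP, Agt, which encodes angiotensinogen, by 0.54 and Entpd2, an ectonucleotidase, by 0.46 on the log2 scale (adjusted p = 0.0321 and 0.0347 by edgeR). The summed level of these 20 was 20915 to 23665 CPM in HFD IP and 22422 to 25935 CPM in CD IP, against 2801 to 2901 CPM in HFD INPUT and 2719 to 3410 CPM in CD INPUT, and that of the 15 endothelial markers is given above.

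The endothelial markers summed to 6015 to 7887 CPM in DMSO-treated cEND cells. In these cells the astrocyte set was nearly absent apart from Gja1 and Glul. The 10 genes took 0.0214 to 0.0270 percent of the counts left after structural RNA was set aside. Gjb6 had 0 counts in all 9 libraries, which at a floor of 3 counts leaves less than 0.110 CPM in the shallowest library. Aqp4 had 1 count in 1 library, Aldh1l1 at most 2 counts and Kcnj10 at most 4 counts in any library. Slc1a2, Slc1a3, Sox9 and Ndrg2 had 3 to 41 counts. Gja1 reached 16.1 ± 1.68 CPM per kb in DMSO cells (SD, n = 3), against 35.0 ± 0.87 in CD IP and 3.94 ± 0.15 in CD INPUT (SD, n = 4 each), scaled here to all counts of a library. Glul reached 13.7 ± 0.74 CPM per kb in DMSO cells, against 1547.5 ± 136 in CD IP and 246.8 ± 22.7 in CD INPUT. Gja1 was the 1 gene of the 10 with a higher level in DMSO cells than in CD INPUT. The tables come from different material and were set side by side as levels, with no test.

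**Figure D5:**
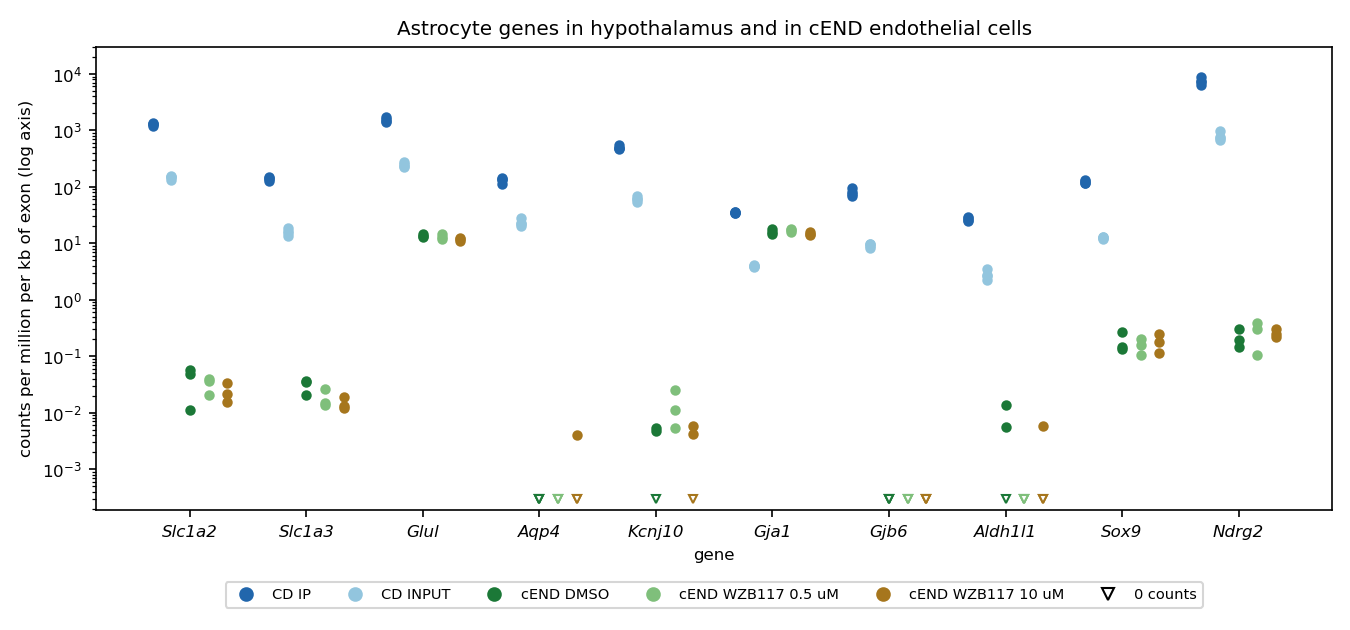
CPM per kb of exon (log axis) of each astrocyte gene in CD IP and CD INPUT hypothalamus and in cEND cells with DMSO, 0.5 µM and 10 µM WZB117; points are libraries and open triangles mark 0 counts. Gja1 and Glul lie above 10 in cEND cells, and the other 8 genes lie below 1.

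Of the 10 genes 5 passed the filter on low counts in cEND cells, and none was called with WZB117. At 10 µM 197 of 15466 genes (1.27 percent) were called by edgeR, and 2864 genes (18.5 percent) with the passage as a block, again with 0 of the 5. Glul had 40.9, 37.2 and 39.9 CPM with 10 µM, against 43.05, 43.3 and 49.6 CPM with DMSO, at passages 12, 14 and 18. The groups did not overlap, as for 7.15 percent of genes downwards, and the log2 difference was -0.20 ± 0.11 (95% interval -0.45 to 0.04, adjusted p = 0.569 by edgeR, 0.051 with the passage as a block). Gja1 had 161, 145 and 155 CPM with 10 µM, against 177, 162 and 153 CPM with DMSO, a difference of -0.09 ± 0.09 (95% interval -0.29 to 0.10, adjusted p = 0.813 by edgeR, 0.366 with the passage as a block). At 0.5 µM no gene of the table was called (0.0 percent, edgeR and DESeq2, 55 at an unadjusted p under 0.05), and Glul and Gja1 differed from DMSO by -0.07 ± 0.11 and 0.07 ± 0.09. Of the lists around the 10, 3 genes were called at 10 µM, Ndrg1, a stress-responsive relative of Ndrg2 (log2 fold change 2.24 ± 0.30, adjusted p = 0.0108), Mthfd1l, a mitochondrial folate enzyme (0.80 ± 0.10, adjusted p = 0.00578), and Slc25a22, a mitochondrial glutamate carrier (-0.62 ± 0.12, adjusted p = 0.0443), by edgeR without the passage block. Their lists had 3, 13 and 11 genes tested. In the other lists none of the 7, 7, 6 and 7 genes tested was called in that fit, against 1.27 percent of all genes. The lists were not counted in the fit with the passage as a block, which called 18.5 percent of all genes.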

How the data were processed

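RNA was sequenced from 16 hypothalamic bacTRAP libraries and 9 cEND libraries. The authors deposited un-normalised estimated counts per gene for each sample, on build GRCm38 per the submitters' processing notes; the aligner, the counting tool and the annotation are not given in the sources used here. Of the values, 17.3 percent (bacTRAP) and 19.8 percent (cEND) were not whole, and counts were rounded before fitting. Symbols, gene types, coordinates and exon lengths came from GENCODE M21.

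Genes were filtered with filterByExpr, scaled by TMM and tested with edgeR 4.0.16 (robust quasi-likelihood fit, R 4.3.3), with Benjamini-Hochberg adjustment over all genes of a fit and a threshold of 0.05. IP over INPUT used all 16 libraries with diet as a term. Diet was tested within each fraction, and its difference between fractions by an interaction term. Each WZB117 dose was compared with DMSO in one fit of the 9 cEND libraries, without a term for passage. The code was tested on simulated counts with the same spread for all genes and no effect of pool or passage. That checks the code and not the error rates of the fits on these data. Partner ratios were compared by 2-sided exact permutation tests (scipy 1.17.1), with adjustment over 12 tests. Promoter sequences are RefSeq's. Around the 10 genes, each list names the 4 genes with the smallest p in IP over INPUT, and list genes called in other comparisons, except that 5 list genes are not reported here by name, though counts and medians of lists include them; the neighbours are the 5 genes with the smallest root mean square difference. The members and lists were chosen with earlier results of these data known.

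Same-passage cEND libraries deviated together (correlations 0.378 to 0.505 between 10 µM and DMSO, and 0.471 to 0.577 between 0.5 µM and DMSO), and the labels name the passage, so passages pair these libraries. The main WZB117 fit left this pairing out, so its SEs and intervals include the spread between passages. Alternatives were DESeq2 1.42.0 with its size factors, library totals without TMM, no filter on low counts, structural RNA left out, the pool number or passage as a block, all 16 libraries in one fit, and each library left out in turn. Among the 33 pairs of libraries within a group, none agreed within sampling noise; pairs across groups were not compared. Depth of 27344573 counts or more per library left the abundant genes limited by the spread between libraries, and the intervals of edgeR cover that spread.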

Additional observations from a re-analysis of the deposited data

Results flagged for a closer look

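In 56 groups of 4 bacTRAP libraries, 5 had 1 library far from the others by Dixon's test at its 95% critical value, and chance flags about 1 group in 20. Kcnj10 had 2729 CPM in the HFD IP library numbered 2, against 2109.8 to 2172 CPM in the other HFD IP libraries. Aldh1l1 had 108 CPM in the HFD IP library numbered 4, against 101 to 102 CPM in the others. Ndrg2 had 2409 CPM in the HFD INPUT library numbered 1, against 2763 to 2816 CPM in the others. The log2 ratio of Slc1a3 to Slc1a2 was -3.74 in the CD IP library numbered 3, against -3.88 to -3.86 in the others, and -3.62 in the CD INPUT library of the same number, against -3.91 to -3.86 in the others.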

How the results depend on the processing

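All 10 genes rose in IP over INPUT under every alternative run, including within the HFD and within the CD libraries, and when each of the 16 libraries was left out. For the diet in IP, DESeq2 called 1 of the 10 genes, Slc1a2 (log2 difference -0.31, adjusted p = 0.00522), while its adjusted p in the edgeR alternatives for IP, leave-one-out fits included, ran from 0.0553 to 0.455. For the diet in INPUT, the fit with no filter on low counts called 1, also Slc1a2 (-0.21, adjusted p = 0.0259). Counts over all genes moved more: the 14 genes called for the diet in IP became 200 with DESeq2, 43 with library totals (29 higher and 14 lower, against 6 and 8), 398 with no filter, 52 with the pool number as a block, 121 with all 16 libraries in one fit, and 5 to 50 with a library left out. The 6 called in INPUT became 52, 18 (15 higher and 3 lower, against 4 and 2), 116, 43 and 2 under the same settings, and 2 to 17 with a library left out. The interaction gave 4 with DESeq2, 1 with no filter, 1 with the block and 0 to 1 with a library left out. At 10 µM WZB117 the 197 genes became 534 with DESeq2, 2864 with the passage as a block, and 38 to 171 with a library left out. Signs turned for Ndrg2 in IP with library totals (0.013), and with a library left out for Ndrg2 (-0.0915 to 0.0748 in IP, -0.216 to 0.0052 in INPUT), Aldh1l1 in INPUT (-0.166 to 0.0552), Glul at 0.5 µM (-0.175 to 0.0015), the ratio of Gjb6 to Gja1 by diet in IP (-0.0403 to 0.133) and that of Glul to Slc1a2 by diet in INPUT (-0.0262 to 0.106). The cause of these changes was not tested. The labels do not say whether a pool number pairs libraries. Same-numbered IP and INPUT libraries correlated at -0.00655 to 0.136 with HFD and 0.053 to 0.109 with CD, and 6 of 8 correlated best with their own number. Between the diets, same-numbered libraries correlated at 0.0126 to 0.0709 in INPUT and -0.0157 to 0.0136 in IP. The HFD INPUT libraries numbered 1, 2 and 3 correlated best with their own number in CD INPUT, and no HFD IP library did so in CD IP. With the number as a block 14824 genes were called in IP over INPUT, with all 10 members. Pairing by number cannot change the differences of -0.50 and -0.43 in the ratios of Aqp4 to Kcnj10 and Glul to Slc1a2. It can change their p-values. With a library left out the adjusted p for these ratios reached 0.00559 and 0.00932 (exact permutation tests). With libraries paired by number it was 0.0469 for each, by an exact test that flips the signs of the 8 paired differences. In both ratios every IP library lay below the INPUT library of its number. The unadjusted p of that test was therefore the smallest that 8 pairs allow. With 4 libraries per group, the 95% intervals of the diet differences limit what the fits show of each of the 10 genes, and 5 of the 10 genes had too few counts in cEND cells to be tested.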
